A study of Mus musculus with 6 samples.

Results

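Of the genes for Polycomb, trithorax, histone demethylase and DNA methylation proteins, 51 were listed by symbol, and 50 of them were measured among 18192 genes on the arrays. Each gene is represented by the brightest probe set annotated to it alone, where a probe set is the group of short probes that reports on a transcript. Ash1l had no such probe set and was not analysed here. The list holds 7 genes of Polycomb repressive complex 2 (PRC2), 13 of Polycomb repressive complex 1 (PRC1) and Asxl1 of the Polycomb deubiquitinase. The MLL and SET group holds 12 measured genes of MLL complexes and other histone methyltransferases. A further 11 are lysine demethylases and 6 are genes of DNA methylation. All 50 read above the brightest bacterial control probe set (3.61 on the log2 scale), taken as background, on all 6 arrays.

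Lineage-negative (Lin-) haematopoietic progenitors of C57BL/6J background carried Rosa26rtTA, a doxycycline-responsive transactivator that is driven from the ubiquitously active Rosa26 locus and was present in both groups. The EGFP-positive cells (3 arrays) are labelled as transduced with pRRL.TET.EVI1.IRES.EGFP, from which doxycycline induces the zinc finger factor EVI1 and, from the same message, EGFP. The EGFP-negative cells (3 arrays) are labelled untransduced, whereas the series' design text has both fractions sorted from a transduced culture, with the negative gate taking negative or low cells. The description of the EGFP-positive samples also calls them untransduced, against their source label, so the groups follow the sample titles. Cells of both groups grew in S3F11 medium, which holds stem cell factor, Flt3 ligand and interleukin-11 at 50 ng/ml each and interleukin-3 at 20 ng/ml, and were sorted 20 hours after doxycycline (1 µg/ml). The labels give no age for the mice and do not state that replicates came from separate cultures, so the p-values reflect only how far these samples spread.

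Polycomb proteins keep developmental genes silent. PRC2 methylates lysine 27 of histone H3 through EZH1 or EZH2, and PRC1, in which a RING protein pairs with a PCGF protein, ubiquitinates histone H2A and in its canonical form binds the methylated lysine through a CBX protein. Trithorax proteins of the MLL family methylate lysine 4 of histone H3 and oppose this silencing, demethylases remove such marks, and DNMT1 with UHRF1 copies DNA methylation to the new strand at replication. In blood, several of these genes are mutated or translocated in leukaemia, and EVI1 itself has been reported to bind Polycomb and DNA methyltransferase proteins.

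The promoters of 5 genes are printed because Uhrf1, Phf19 and Cbx7 were the members that changed at least 2-fold, and Ezh2, Suz12 and Phf19, all PRC2 genes, were the members whose promoter window held an E2F motif. They come from RefSeq (build GRCm38.p6) and run 5′ to 3′ over the 250 bases before the start site farthest upstream: chr17:56303087-56303336 on the plus strand for Uhrf1, chr2:34913977-34914226 on the minus strand for Phf19, chr15:79932647-79932896 on the minus strand for Cbx7, chr11:79992856-79993105 on the plus strand for Suz12 and chr6:47595031-47595280 on the minus strand for Ezh2. Capitals mark the E2F letters TTTCCCGC, TTTGGCGC or TTTCGCGC and the CCAAT box (CCAAT), each on either strand.
Uhrf1: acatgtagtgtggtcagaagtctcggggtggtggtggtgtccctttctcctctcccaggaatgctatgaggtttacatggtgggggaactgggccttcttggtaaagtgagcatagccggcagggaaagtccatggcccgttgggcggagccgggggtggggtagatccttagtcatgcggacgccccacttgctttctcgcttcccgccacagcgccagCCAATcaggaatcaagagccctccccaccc
Phf19: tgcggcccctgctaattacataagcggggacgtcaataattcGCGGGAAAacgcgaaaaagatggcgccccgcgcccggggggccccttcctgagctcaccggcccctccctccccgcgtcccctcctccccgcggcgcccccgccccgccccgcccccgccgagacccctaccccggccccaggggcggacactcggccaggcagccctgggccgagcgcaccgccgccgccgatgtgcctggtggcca
Cbx7: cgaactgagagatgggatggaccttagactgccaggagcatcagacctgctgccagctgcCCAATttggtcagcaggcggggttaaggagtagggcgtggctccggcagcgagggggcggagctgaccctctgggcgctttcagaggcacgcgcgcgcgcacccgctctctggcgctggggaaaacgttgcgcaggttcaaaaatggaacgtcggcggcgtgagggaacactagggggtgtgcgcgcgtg
Suz12: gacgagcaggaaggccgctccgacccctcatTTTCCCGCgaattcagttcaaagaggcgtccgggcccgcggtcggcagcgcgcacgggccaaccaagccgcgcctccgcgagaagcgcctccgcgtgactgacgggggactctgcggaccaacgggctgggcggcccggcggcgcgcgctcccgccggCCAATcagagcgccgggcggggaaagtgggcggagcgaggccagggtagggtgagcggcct
Ezh2: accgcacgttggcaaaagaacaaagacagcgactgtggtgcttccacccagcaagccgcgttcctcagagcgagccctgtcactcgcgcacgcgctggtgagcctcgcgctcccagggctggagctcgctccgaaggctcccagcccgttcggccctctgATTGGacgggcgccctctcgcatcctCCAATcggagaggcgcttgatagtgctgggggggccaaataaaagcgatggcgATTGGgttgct

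Windows of 300 bases, from 250 before to 50 after the start site, were found for 43 of the 50 members. Ash2l, Cbx2, Kdm2a, Kdm5a, Kdm6b, Kmt2e and Nsd1 were not matched. The 27025 promoters set beside them, called all promoters below, hold 1 start site per gene and none on chromosome 18. An E2F motif lay in 3 of the 43 (6.98%), against 1.91% of 27025 promoters of the same length. It began at -219 from the start site in Suz12, at -208 in Phf19 on the opposite strand, and at 4 in Ezh2, just beyond the stretch printed. The CCAAT box lay in 17 of 43 (39.5%), against 38.0% of all promoters, among them Uhrf1, Dnmt1, Cbx7 and Cbx8. The EVI1 zinc finger motif GACAAGATA was found in 0 of 43 windows (0.126% of all promoters), the ETS-type motif ACCGGAAG in 0 of 43 (2.34%), and the GATA-type motif AGATAA in 1 of 43, that of Kdm4c (11.4%). The letters AGATA are shared by the EVI1 and GATA-type motifs. A match is a description of these letters, not of binding, and a window without one says nothing of the factor.

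Mecom, the gene for EVI1, showed no called rise in the cells labelled EGFP-positive. Its brightest probe set read 8.26, 8.17 and 8.35 on the EGFP-negative arrays, against 8.20, 7.89 and 7.82 on the EGFP-positive arrays (limma, adjusted p = 0.13 over genes), and its other 2 probe sets lay under background. Whether these probe sets match the EVI1 sequence of the vector was not tested, so the groups rest on the labels alone.

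The array medians lay between 5.11 and 5.14 on the log2 scale. Pearson's r across probe sets was 0.995 within EGFP-negative, 0.989 within EGFP-positive and 0.968 to 0.969 between groups. All 8 progenitor markers read above background in both groups, and 5 of them, Kit and Cd34 included, were lower in EGFP-positive cells and 1, Spi1, higher. Genes of other cell types moved with the groups: all 7 neutrophil granule, 6 monocyte, 6 mast cell and 4 eosinophil markers fell, 3 of 6 lymphoid markers fell, and 6 of 6 erythroid and 3 of 5 platelet markers rose. Over all genes 16.0% rose and 17.2% fell. The neutrophil list averaged 11.04 to 11.21 per EGFP-negative array and 7.94 to 8.08 per EGFP-positive array, and the erythroid list 6.51 to 6.73 and 8.48 to 8.56. The erythroid average leans on Slc4a1, which rose by 6.25 from under background, while the median difference of that list was 1.35. The 3′ excess of Actb and Gapdh signal, a sign of RNA quality, averaged 0.80 ± 0.05 for Actb and 0.82 ± 0.02 for Gapdh (SD, n = 3) over EGFP-negative arrays, and 1.00 ± 0.03 for Actb and 1.06 ± 0.04 for Gapdh over EGFP-positive arrays. The part of cell mix or RNA quality in the results below was not tested, and in sorted bulk cells fewer cells of a type and less RNA per cell cannot be told apart.

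EGFP-positive cells were compared with EGFP-negative cells to ask how forced EVI1 changes gene expression in progenitors. Among the 50 listed chromatin regulators, the DNA methylation factor gene Uhrf1 and the PRC2 accessory gene Phf19 fell furthest by their brightest probe sets. The PRC1 reader gene Cbx7 rose furthest of the 50. Of the 50 genes, 9 rose and 10 fell (38.0%; limma, Benjamini-Hochberg adjusted p under 0.05 over all genes), against 33.2% of all genes tested, of which 16.0% rose and 17.2% fell. A change of at least 2-fold was called for 3 of the 50 (6%), against 12.2% of all genes. The median log2 difference was 0.04, against 0.02 over all genes, and 84% of the members differed by under 1.5-fold, against 74.3% of all genes. The groups of arrays did not overlap for 31 of the 50, against 48.2% of all genes. With arrays shifted to the same median, 13 rose and 8 fell, and the median over all genes moved from 0.02 to 0.07. Without EGFP-negative replicate 1, or without EGFP-negative replicate 2, 12 of the 50 were called. The number called over all genes also fell without any 1 array (closing section). The leave-out counts by group below have that same limit.

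**Figure D1:**
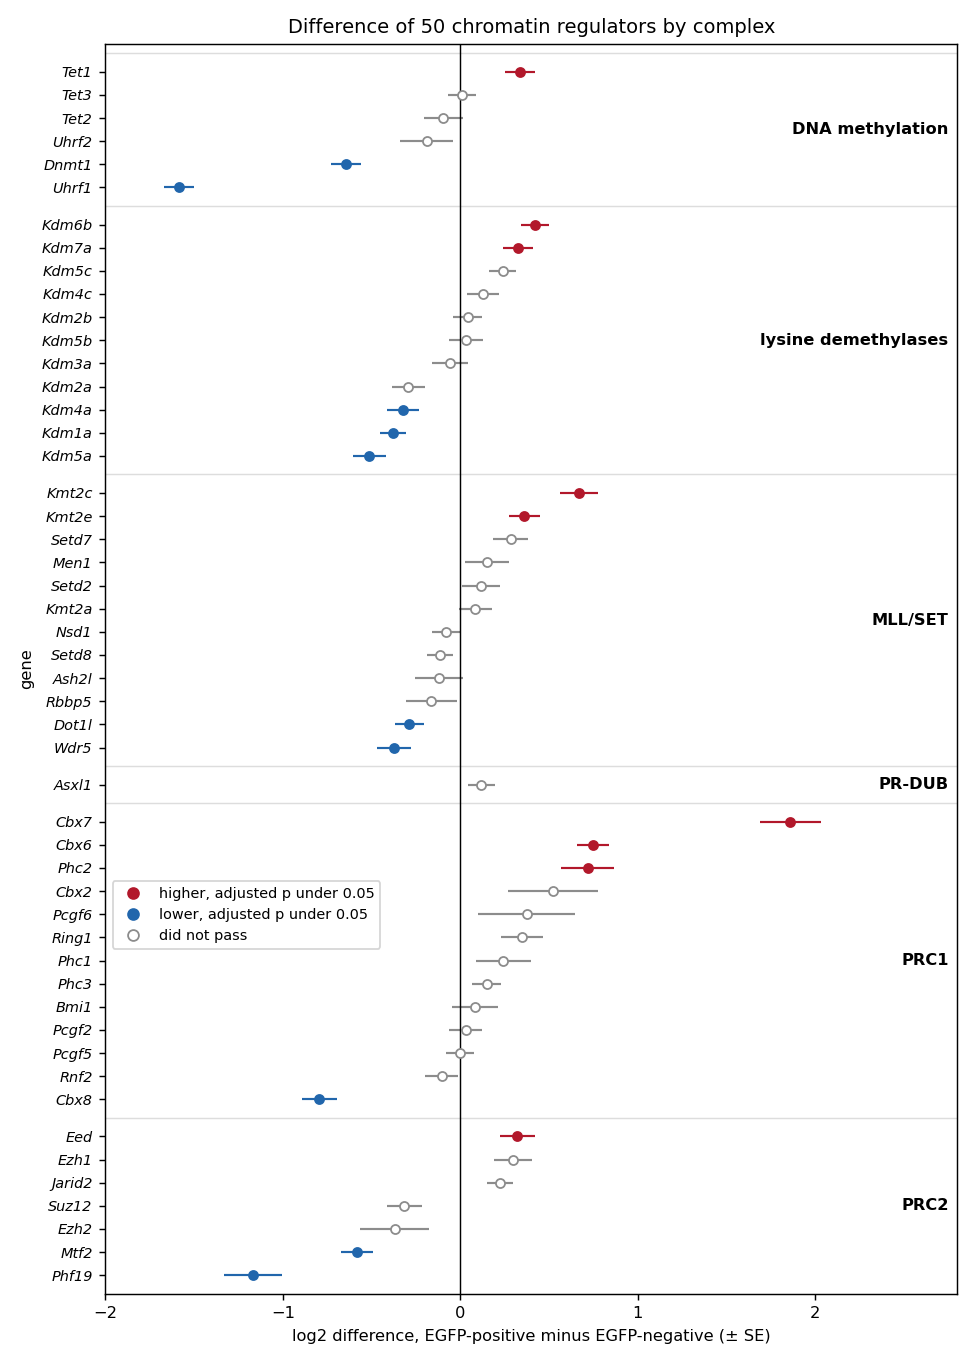
Log2 difference (EGFP-positive minus EGFP-negative, 3 arrays each) for the 50 measured genes, grouped by complex, with the standard error as a bar. Filled red points passed as higher (9 genes), filled blue points as lower (10 genes), and open points did not pass. Cbx7 stands at 1.86, and Phf19 and Uhrf1 at -1.17 and -1.58.

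Within PRC2, the catalytic genes did not pass the test and 2 Polycomb-like accessory genes fell. Of 7 genes, Eed rose and Mtf2 and Phf19 fell (42.9%, against 33.2% of all genes), with a median difference of -0.32. With arrays shifted to the same median, 3 rose and 2 fell. Phf19, whose Tudor domain reads methylated lysine 36 of histone H3 and helps PRC2 onto chromatin, read 5.91, 5.99 and 5.85 on the EGFP-negative arrays, against 4.43, 4.75 and 5.06 on the EGFP-positive arrays. Every EGFP-positive array lay below every EGFP-negative array. The fall was 2.25-fold (-1.17, SE 0.17; limma, adjusted p = 0.0027). Its dimmer probe set, at 4.05 and 3.91, differed by -0.14 and did not pass. With the mean of both the fall was smaller (-0.65, limma, adjusted p = 0.018), and that of Dnmt1 taken the same way was larger (-0.71). Mtf2, a second Polycomb-like protein, read 10.53, 10.56 and 10.74 against 10.06, 9.99 and 10.03. Its fall of 0.58 (limma, adjusted p = 0.0039) was shared by 4 of its 6 probe sets over the test on probe sets. Phf1, the other Polycomb-like gene, was not on the list of 51 but among the further genes of these groups. It moved the opposite way, from 5.36 ± 0.09 to 6.09 ± 0.10 (SD, n = 3), a rise of 0.74 (limma, adjusted p = 0.0018).

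Ezh2, the main methyltransferase of dividing cells, read 8.05, 8.14 and 8.13 on the EGFP-negative arrays, against 7.41, 7.63 and 8.17 on the EGFP-positive arrays. The first and second EGFP-positive arrays lay below all EGFP-negative arrays and the third above them, so the groups overlapped. The difference of -0.37 did not pass (95% confidence interval -0.84 to 0.10; limma, adjusted p = 0.20), but without EGFP-positive replicate 3 it was -0.59 with an adjusted p of 0.012. Ezh1, the form associated with resting cells, read 8.06, 8.11 and 8.17 against 8.58, 8.27 and 8.39. Its groups did not overlap, and its difference of 0.30 (0.04 to 0.55) did not pass (limma, adjusted p = 0.077). With the mean of its 4 probe sets it was -0.04. The brightest passed without EGFP-positive replicate 2 (0.37, limma, adjusted p = 0.048).

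The core subunits gave small differences of opposite sign. Suz12, the scaffold of PRC2, read 10.81, 10.80 and 10.62 against 10.54, 10.33 and 10.41. Its brightest probe set missed the threshold (-0.32, limma, adjusted p = 0.054), while 3 of its 6 probe sets passed as lower, by 0.37 to 0.39. The dimmest, near background, differed by 0.39 the other way and did not pass. Without EGFP-positive replicate 1 the brightest was also called (-0.37). Eed, which binds the methylated lysine, read 9.08, 9.08 and 8.98 against 9.26, 9.52 and 9.33, a rise of 0.32 (limma, adjusted p = 0.048). Its call was lost without any array but EGFP-positive replicate 1, with adjusted p from 0.078 to 0.14. Jarid2, a targeting subunit, was higher by 0.22 at each of its 3 probe sets to within 0.01 and did not pass (limma, adjusted p = 0.061).

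In PRC1, most calls were of chromodomain (CBX) genes, whose proteins read the PRC2 mark. Of 13 genes, Cbx6, Cbx7 and Phc2 rose and Cbx8 fell (30.8%, against 33.2% of all genes). The other 9 did not pass, and the median was 0.24. Cbx7, the CBX gene linked to self-renewal of blood stem cells, read 5.67, 5.65 and 5.77 on the EGFP-negative arrays, against 7.17, 7.73 and 7.77 on the EGFP-positive arrays. The groups lay well apart, and the rise was 3.63-fold (1.86, SE 0.17; limma, adjusted p = 0.00050). All 3 of its probe sets rose, by 1.86, 2.31 and 2.42 on the log2 scale. Cbx8, linked to differentiating blood cells, went the other way, from 5.25, 5.20 and 5.10 to 4.24, 4.49 and 4.45. It fell 1.73-fold (-0.79; limma, adjusted p = 0.0017). Its dimmer probe set differed by 0.02 and did not pass.

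Cbx6, a CBX gene of less known function, rose from 11.39, 11.32 and 11.52 to 12.21, 12.17 and 12.10, or 1.68-fold (limma, adjusted p = 0.0014). Its second probe set rose further, by 1.48. Phc2, which holds PRC1 units together, read 8.23, 7.95 and 8.09 against 8.96, 8.52 and 8.94, a 1.65-fold rise (limma, adjusted p = 0.012). Cbx2 read 4.77, 4.66 and 4.87 against 5.30, 4.77 and 5.80 and did not pass (0.52, limma, adjusted p = 0.17). Its EGFP-positive replicate 2 was the low array, and without it Cbx2 was called (0.78, limma, adjusted p = 0.024).

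The catalytic core of PRC1 showed no called change. Bmi1, a PCGF protein needed by blood stem cells, differed by 0.09 (95% confidence interval -0.23 to 0.40), and its relative Pcgf2 by 0.03 (-0.20 to 0.26). The E3 ligase genes Rnf2 and Ring1 differed by -0.11 (-0.33 to 0.12) and 0.35 (0.06 to 0.64; limma, adjusted p = 0.070). Pcgf5 and Pcgf6, of variant PRC1, differed by 0.00 (-0.19 to 0.19) and 0.37 (-0.29 to 1.04). These intervals are of the brightest probe sets, and changes of about 2-fold lie outside them except for Pcgf6. The dimmer probe set of Bmi1 differed by 0.59 (SE 0.31) and did not pass, so for that probe set a 2-fold rise is not excluded. Phc1 (0.24) and Phc3 (0.15) did not pass, nor did Asxl1 (0.12), which activates the Polycomb deubiquitinase.

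**Figure D2:**
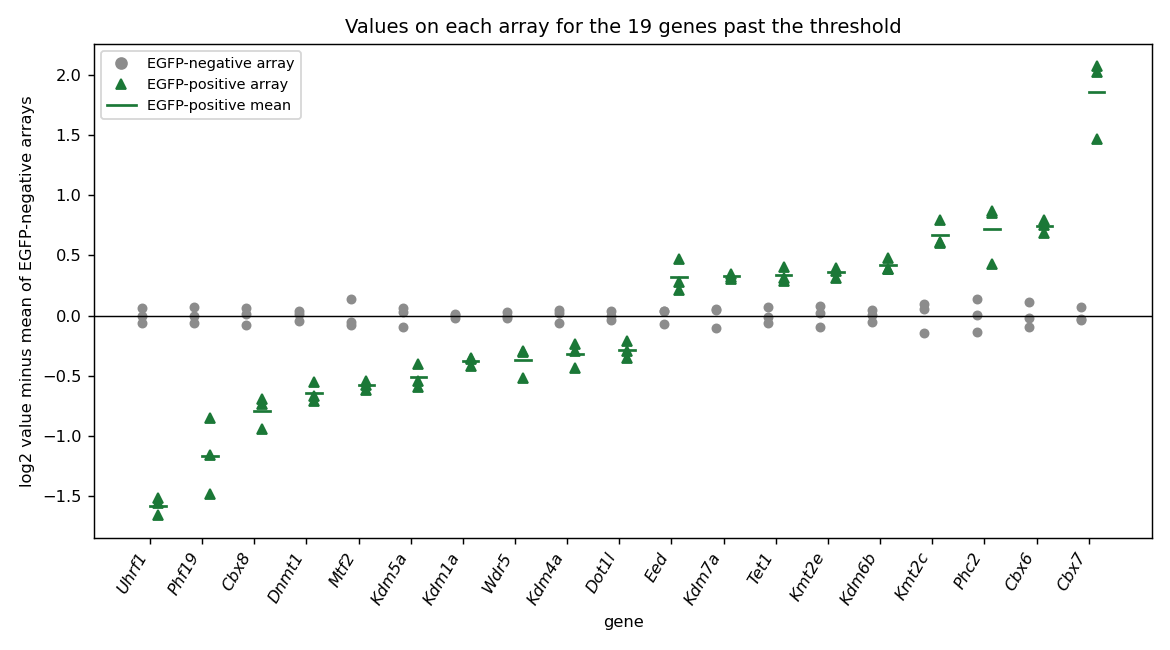
Value on each array minus the EGFP-negative mean (log2 scale) for the 19 genes past the threshold, with EGFP-negative arrays as grey circles, EGFP-positive arrays as green triangles and the EGFP-positive mean as a line. The groups do not overlap for any of the 19, and Phf19, Phc2 and Cbx7 spread most among EGFP-positive arrays.

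DNA methylation genes held the largest fall among the listed genes, and Dnmt3l, outside the list, fell further (-1.72). UHRF1 recognises newly replicated DNA and brings DNMT1, the maintenance methyltransferase, to it. Uhrf1 read 11.65, 11.78 and 11.71 on the EGFP-negative arrays, against 10.05, 10.14 and 10.19 on the EGFP-positive arrays, 3.00-fold lower with a narrow spread (-1.58, SE 0.08; limma, adjusted p = 6.9e-05). Both of its probe sets fell (-1.58 and -1.55). Dnmt1 fell 1.56-fold, from 12.83, 12.81 and 12.74 to 12.08, 12.13 and 12.24 (limma, adjusted p = 0.0018). All 3 Dnmt1 probe sets fell, by 0.64, 0.66 and 0.83. The platform marks the probes of the first and second as less specific to the gene.

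The cell cycle markers moved the same way as Uhrf1 and Dnmt1: 9 of 9 measured fell, against 17.2% of all genes. Their median difference was -1.78, and among them were the replication clamp gene Pcna (-1.92) and the cyclin gene Ccna2 (-1.75). That list averaged 9.68 to 9.78 per EGFP-negative and 7.83 to 7.98 per EGFP-positive array. Its part in the falls of Uhrf1, Dnmt1 and Phf19 was not tested. Uhrf2, a relative of Uhrf1, read 8.34, 8.51 and 8.19 against 8.31, 8.28 and 7.88. It did not pass (-0.19, 95% confidence interval -0.56 to 0.18), although its dimmer probe set passed as lower (-0.58).

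Of the dioxygenases that oxidise methylcytosine, Tet1 alone passed the test. It read 6.82, 6.95 and 6.87 against 7.20, 7.17 and 7.29, a rise of 0.34 (limma, adjusted p = 0.024), and 3 of its 4 probe sets rose. The call was lost without any EGFP-negative replicate or without EGFP-positive replicate 3 (adjusted p from 0.051 to 0.089). Tet2, mutated in many blood cancers, read 10.41, 10.52 and 10.43 against 10.16, 10.48 and 10.44, and differed by -0.10 (95% confidence interval -0.37 to 0.17). Tet3 read 7.20, 7.29 and 7.24 against 7.19, 7.30 and 7.26, a difference of 0.01 (-0.18 to 0.20).

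Among 12 genes of the MLL and SET group, 2 rose and 2 fell (33.3%, against 33.2% of all genes). None changed 2-fold, and the median was 0.00. Kmt2c, the enhancer methyltransferase MLL3, read 10.04, 10.29 and 10.24 against 10.80, 10.79 and 10.98. It rose 1.59-fold (limma, adjusted p = 0.0041), and 2 of its 4 probe sets rose. Kmt2e, a family member that acts in haematopoiesis, rose by 0.36 (limma, adjusted p = 0.020), with 3 of 6 probe sets higher. Wdr5, a core subunit of all MLL complexes, fell by 0.37 (limma, adjusted p = 0.025), and Dot1l, the lysine 79 methyltransferase that MLL fusions depend on, fell by 0.29 (limma, adjusted p = 0.037). Kmt2a, the MLL gene itself, differed by 0.08 (95% confidence interval -0.14 to 0.31) and its partner menin (Men1) by 0.15 (-0.15 to 0.45). Ash2l (-0.12), Rbbp5 (-0.16), Nsd1 (-0.08), Setd2 (0.11), Setd7 (0.28) and Setd8, now named Kmt5a (-0.12), did not pass.

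These 4 calls were small, and all but Kmt2c depended on single arrays. Kmt2e was lost without EGFP-negative replicate 1 or 2 or EGFP-positive replicate 1 (adjusted p from 0.054 to 0.077), and Wdr5 without any 1 EGFP-negative replicate (0.070 to 0.085). Dot1l was lost without any array but EGFP-positive replicate 3 (0.081 to 0.13). The count for this group was 1 without EGFP-negative replicate 1 or replicate 2, and 2 without EGFP-negative replicate 3 or EGFP-positive replicate 1. Dimmer probe sets passed as lower for Ash2l (-0.57) and Kmt5a (-1.35) and as higher for Nsd1 (0.43), where the brightest did not.

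Of 11 lysine demethylases, Kdm6b and Kdm7a rose and Kdm1a, Kdm4a and Kdm5a fell (45.5%, against 33.2% of all genes). The other 6 did not pass, and the median was 0.03. Kdm1a, the lysine 4 demethylase LSD1, which acts in corepressor complexes, read 10.06, 10.03 and 10.06 against 9.70, 9.63 and 9.69. The fall of 0.38 (limma, adjusted p = 0.0095) was seen at both probe sets. Kdm6b, which removes the PRC2 mark, rose from 13.13, 13.18 and 13.08 to 13.52, 13.52 and 13.61, or by 0.42 (limma, adjusted p = 0.0081). Its brightest probe set is marked as less specific. Of its 2 specific probe sets the dimmer rose (0.61) and the brighter did not pass (0.45), and with the brighter in its place the call was lost (limma, adjusted p = 0.050). Kdm7a, a demethylase of lysines 9 and 27, rose by 0.33 (limma, adjusted p = 0.026), with 3 of 5 probe sets higher.

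Of the lysine 4 demethylases of the Kdm5 family, Kdm5a alone passed the test. Kdm5a read 8.51, 8.54 and 8.38 against 7.88, 7.93 and 8.08, a fall of 0.51 (limma, adjusted p = 0.0073). Only 1 of its 6 probe sets passed, and 3 others of the 6 differed upward, by 0.32 to 0.39. With the mean of all 6 the difference was 0.05, so the direction rests on the probe set chosen. Kdm5b read 10.32, 10.26 and 10.41 against 10.42, 10.43 and 10.22 and differed by 0.03. Kdm5c read 11.66, 11.62 and 11.62 against 11.92, 11.87 and 11.82. Its groups did not overlap and its difference of 0.24 did not pass (limma, adjusted p = 0.057), while 1 of its 9 probe sets passed as higher.

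The remaining demethylase calls were weak. Kdm4a, a lysine 9 and 36 demethylase, fell by 0.32 (limma, adjusted p = 0.035) and lost its call without any array but EGFP-positive replicate 2 (adjusted p from 0.064 to 0.11). Kdm7a lost its call without any array but EGFP-positive replicate 3 (0.055 to 0.093). Kdm2a, a demethylase of lysine 36, differed by -0.29 and was called only without EGFP-positive replicate 2 (-0.35, limma, adjusted p = 0.040) among the leave-out fits. With the mean of its 7 probe sets it differed by 0.02. Its relative Kdm2b, which brings variant PRC1 to CpG islands, differed by 0.04, and Kdm3a (-0.06) and Kdm4c (0.13) did not pass. Without any 1 EGFP-negative replicate, or without EGFP-positive replicate 1, 3 of the 11 were called.

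**Figure D3:**
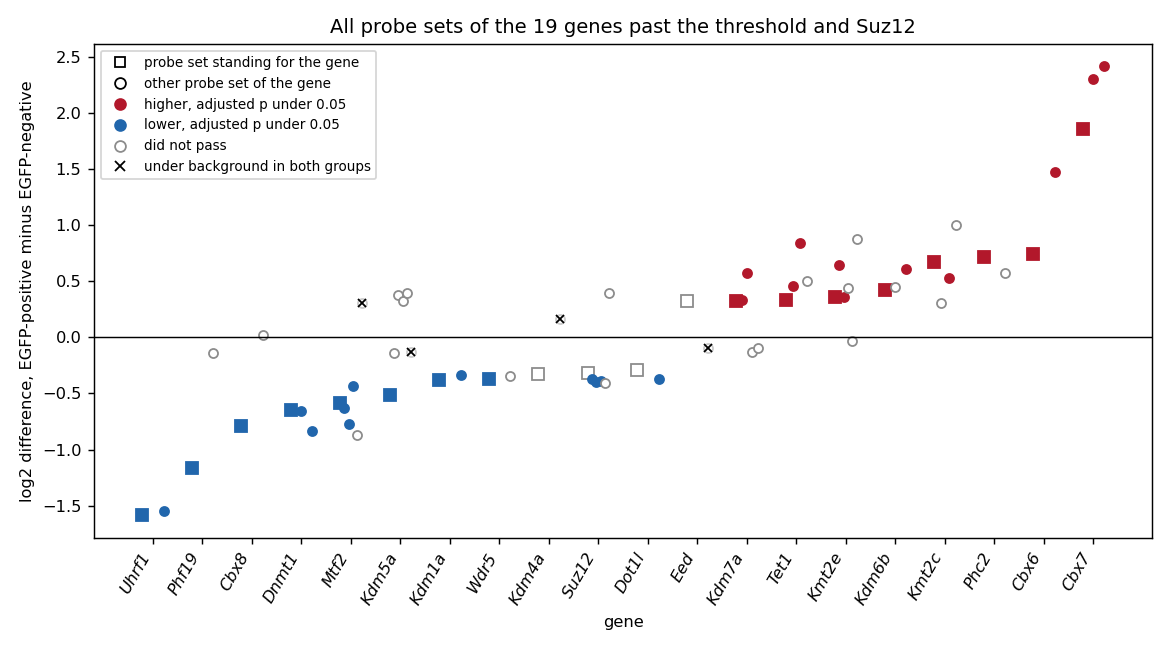
Log2 difference (EGFP-positive minus EGFP-negative) at every probe set of the 19 called genes and of Suz12, with squares for the probe set that stands for the gene. Filled points passed in the fit over all probe sets, which is adjusted over 45037 of them, so Eed, Kdm4a and Dot1l are open squares here. Crosses mark probe sets under background in both groups. All probe sets of Cbx6, Cbx7, Dnmt1, Kdm1a and Uhrf1 passed in the direction of the call, and those of Kdm5a lie on both sides of 0.

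Across the list, 146 probe sets were annotated to the 50 genes. Those standing for Suz12, Jarid2, Cbx6, Kdm1a, Kdm5b, Kdm6b and Dnmt1 are marked as less specific to the gene. Cbx6, Kdm1a and Dnmt1 kept their calls with such probe sets left out. None of the 19 called genes had another probe set that passed in the opposite direction. At least 2 passed in the direction of the call for 11 of the 19. That count takes in the probe set that stands for the gene, so part of the agreement was fixed in advance. Over the whole array 24.1% of probe sets passed, which is no background for a count of genes chosen by their calls.

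The difference between related genes was also taken on each array, which leaves out what moves both alike. For 12 of 14 pairs the EGFP-positive values did not overlap the EGFP-negative ones. Several pairs share a gene, and a pair moves when either gene does, so the count has no background share to set it against. Each of the 12 had an exact two-sided permutation p of 0.1, the smallest that 3 against 3 arrays allow (0.12 adjusted over the 14 pairs). Cbx7 minus Cbx8 changed most, from 0.42, 0.45 and 0.66 to 2.93, 3.24 and 3.32, a shift of 2.65 (SE 0.14). Uhrf1 minus Uhrf2 shifted by -1.39 (SE 0.19) and Cbx2 minus Cbx7 by -1.34 (SE 0.35). Ezh1 minus Ezh2 went from 0.01, -0.02 and 0.04 to 1.17, 0.64 and 0.23, a shift of 0.67 (SE 0.27) with a wide spread among EGFP-positive arrays. Bmi1 minus Pcgf2 (0.06) and Phc1 minus Phc2 (-0.48) overlapped. With each gene taken as the mean of its probe sets, 6 of the 14 pairs did not overlap.

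**Figure D4:**
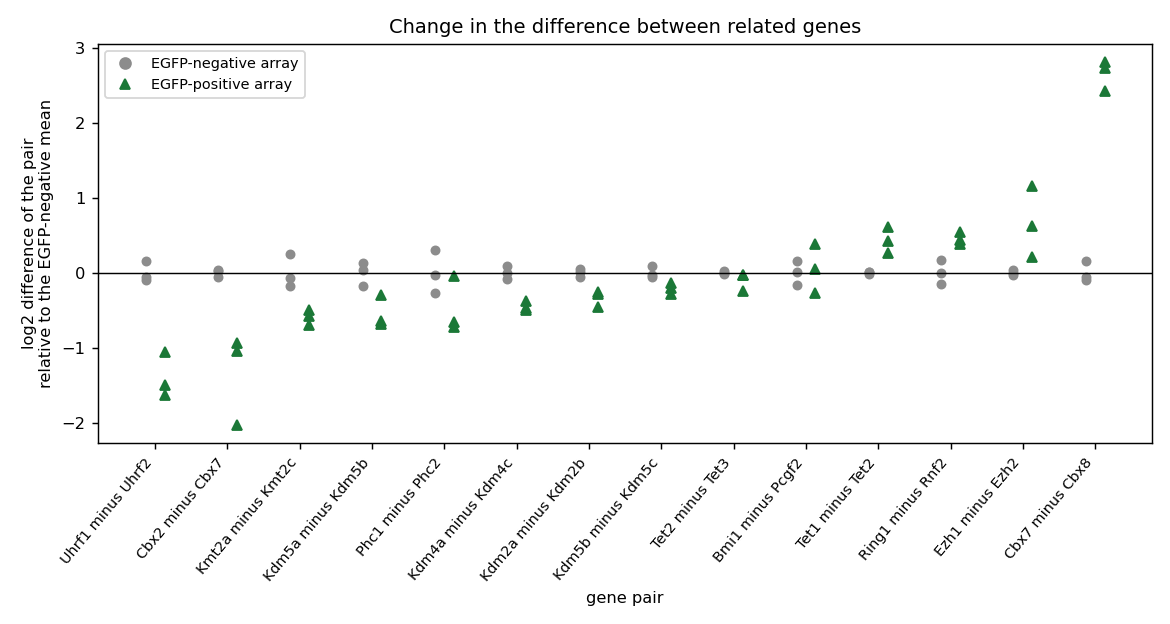
Log2 difference between 2 related genes on each array, relative to its mean in EGFP-negative arrays, for 14 pairs ordered by the shift. Grey circles are EGFP-negative and green triangles EGFP-positive arrays (3 each). Cbx7 minus Cbx8 lies more than 2 units up in all EGFP-positive arrays, and only Bmi1 minus Pcgf2 and Phc1 minus Phc2 overlap.

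Of 56 further genes placed in the same groups, not all of them subunits of a complex, 51 were measured. Of these, 10 rose and 9 fell (37.3%, against 33.2% of all genes), with a median of 0.00. A change of at least 2-fold was called for 6 of the 51, against 12.2% of all genes. The rises with the smallest p were Bcor, a corepressor of variant PRC1 (1.38, from 9.49 ± 0.13 to 10.87 ± 0.13, SD, n = 3), Setd1b, a lysine 4 methyltransferase (0.92), Phf1 and Smyd3 (0.82). The falls with the smallest p were Nsd2, a lysine 36 methyltransferase (-1.47, from 8.72 ± 0.01 to 7.25 ± 0.22), Smyd2 (-1.07), L3mbtl2, a subunit of variant PRC1 (-1.06), and Dnmt3l, a cofactor of de novo DNA methylation (-1.72). The smallest adjusted p of these 8 was that of Bcor (0.00029) and the largest that of Smyd3 (0.0026; limma). Asxl3 also passed as higher, but it lay under background on all 6 arrays and is given no fold.

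Of 12 genes known as Polycomb or MLL targets, 6 rose (50.0%) and 0 fell in the limma fit, against 16.0% and 17.2% of all genes. The list was chosen with earlier results of these data known, so its share describes these 12 genes and is no test. Eya1 (-0.45) had an adjusted p of 0.051 in that fit, and both group means of Gata6 lay under background. A link of these genes to the Polycomb or MLL genes was not tested. The list's median was 0.56, against 0.02 over all genes. The CDK inhibitor genes Cdkn2a, silenced by BMI1 and CBX7 in many cells, and Cdkn2b rose by 1.96 and 1.44 (limma, adjusted p = 0.00048 and 0.00052). Cdkn1c rose at least 3.56-fold, with 2 EGFP-negative arrays under background. The MLL targets Hoxa9 (-0.07), Hoxa7 (0.16) and Meis1 (-0.24) did not pass, and Hoxa10 (0.57), Hoxb4 (0.72) and Pbx3 (0.56) rose.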

How the data were processed

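Total RNA of 6 sorted samples was amplified from the 3′ end and hybridised to 1 Affymetrix array each. The deposited values are log2 expression per probe set, which the authors made by RMA per the submitters' processing notes (version not given in the sources used here). RMA quantile-normalizes the arrays, so they hold no measure of total RNA per cell. Of 45037 probe sets that are not controls, 34945 had 1 gene in GEO's platform annotation, which gave 18192 genes with symbols checked against RefSeq (GRCm38.p6). Setd8 was found under its current name Kmt5a.

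A gene was represented by its probe set with the highest mean over 6 arrays. EGFP-positive minus EGFP-negative was fitted over all genes, and again over all probe sets, in R 4.3.3 with lmFit and eBayes of limma 3.58.1 (no covariate, two-sided, Benjamini-Hochberg, threshold 0.05), and the code was tested on simulated data. Confidence intervals (95%) come from that fit and are not adjusted. All 51 members could be named. Per-array values were given for calls of at least 2-fold and for the Ezh, Tet, Uhrf and Kdm5 genes, and for further members where the text turns on them. From the further genes up to 4 in each direction with the smallest p were named, and from each marker list up to 2; other names spell out a count and were chosen after their values were seen. Alternatives are given in the closing section. No read depth exists for arrays, and 3 arrays per group limit the precision. The members and lists were chosen with earlier results of these data known.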

Additional observations from a re-analysis of the deposited data

How the results depend on the processing

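Of the 19 calls, 8 held under every alternative they could be tested in (Phf19, Cbx6, Cbx7, Cbx8, Phc2, Kdm1a, Dnmt1 and Uhrf1), and 11 were lost under at least 1. Of the 31 genes not called, 13 passed under at least 1. Leaving out 1 array at a time gave 12 to 19 calls among members, 3 to 5 among demethylases, 1 to 4 among MLL and SET genes, 4 to 5 in PRC1, 2 to 4 in PRC2, 2 to 3 in DNA methylation, 13 to 17 among the further genes, 4432 to 5664 genes called over the arrays, and 12 to 13 pairs without overlap. PRC2 had 5 calls with arrays shifted to the same median, with only genes above the median gene, with only genes above background or with eBayes trend, and 1 with the most variable probe set. Demethylases had 2 calls with the mean of all probe sets, which left 6 pairs without overlap. The sign turned for 18 members under at least 1 alternative. With the most variable probe set it turned for the called genes Eed (-0.097), Kdm4a (0.16) and Kdm5a (0.39), and for Ezh1 (-0.27), Suz12 (0.39), Asxl1 (-0.29), Men1 (-0.020), Nsd1 (0.43), Setd7 (-0.021), Kdm2a (0.37) and Kdm2b (-0.020), which were not called. With the mean of all probe sets it turned for Kdm5a (0.053), Ezh1 (-0.044), Asxl1 (-0.13), Nsd1 (0.037), Kdm2a (0.023) and Kdm2a minus Kdm2b (0.013). Pcgf5, near 0, turned with further quantile normalization (0.031) and with arrays shifted to the same median (0.043). Leaving out 1 array gave values on both sides of 0 for Bmi1 (-0.022 to 0.18), Pcgf2 (-0.038 to 0.086), Pcgf5 (-0.022 to 0.025), Kdm3a (-0.14 to 0.012), Kdm5b (-0.0055 to 0.097), Tet2 (-0.15 to 0.0056) and Tet3 (-0.017 to 0.037), none of them called. The cause was not tested. The second probe sets of Eed and Kdm4a lay under background. The most variable probe set also ended the calls of Mtf2 (adjusted p = 0.051) and Kmt2c (0.078). Leaving out the less specific probe sets, a choice made after seeing the data, gave 18 calls and ended that of Kdm6b (0.45, adjusted p = 0.050). Phf19 kept its call with the mean of its probe sets at a smaller size (-0.65).

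With the replicate number as a block, the number of genes called was 4900, that of probe sets called 8482 and that of members 12, with 3 calls among demethylases and 1 among MLL and SET genes. Deviations of same-numbered arrays from their group means correlated at 0.01, -0.01 and 0.00. No shared deviation was seen, which does not settle whether same-numbered samples were paired. Kdm1a (adjusted p = 0.045) and Dnmt1 (0.016) kept their calls.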
